A study of Mus musculus with 18 samples.

Results

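The genes described here are 9 that encode known partners of the transcriptional regulator Aire and the kinase that releases paused RNA polymerase II: Top1, Top2b, Prkdc, Parp1, Xrcc5, Xrcc6, Cdk9, Ccnt1 and Sirt1. They were taken by gene symbol, and all 9 were found among the 21875 gene IDs shared by 3 deposited count tables, of which those for Aire and Fezf2 hold 49585 genes each and that for Chd4 holds 21969. RNA was sequenced from sorted medullary thymic epithelial cells (mTECs) in 18 libraries, 3 in each of 6 groups, to compare mice lacking Aire, Fezf2 or Chd4 with controls. On the C57BL/6 background there were mice labelled Aire KO, wild-type mice (WT) that served as their controls, mice labelled Fezf2 KO, and a separate WT group for those. On the C57BL/6x129P2 background there were Chd4 flox/flox controls and Chd4 flox/flox Foxn1-Cre mice (Chd4 cKO), in which Cre is driven by the Foxn1 promoter, active throughout the thymic epithelium. The controls of this pair thus carry the floxed Chd4 alleles too. The sources used here give no ages, no pooling of animals and no deleted parts of Aire and Fezf2, and the count columns name the Fezf2 group as a conditional knockout where the labels say KO.

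Aire lets mTECs transcribe genes that otherwise belong to single peripheral tissues, so that developing T cells meet those self-antigens in the thymus. It does so with general transcription machinery. Topoisomerases cut and reseal DNA to remove torsion, DNA-dependent protein kinase (DNA-PK) and PARP1 respond to such breaks, P-TEFb phosphorylates RNA polymerase II so that it leaves its pause near the promoter, and the deacetylase Sirt1 removes acetyl groups from Aire. Fezf2 is a second regulator of tissue-restricted genes in mTECs, and Chd4 is the ATPase of the nucleosome remodelling complex NuRD.

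The upstream sequences of Sirt1 and Top2b are shown because these genes gave the clearest and the next clearest difference in Chd4 cKO mTECs. Both come from RefSeq on GRCm38.p6, in which 8 of the 9 genes were matched by symbol and Prkdc was not. They are the bases before the RefSeq start site that lie outside annotated GENCODE exons, at chr10:63339051-63339285 on the minus strand for Sirt1 (235 bases) and chr14:16364956-16365178 on the plus strand for Top2b (223 bases). The RefSeq start of Sirt1 lies inside the longer span that the count tables give that gene. Capitals mark matches on either strand to the GC box GGGCGG, the CCAAT box CCAAT, the TATA box TATAAA and the E-box CACGTG.
Sirt1: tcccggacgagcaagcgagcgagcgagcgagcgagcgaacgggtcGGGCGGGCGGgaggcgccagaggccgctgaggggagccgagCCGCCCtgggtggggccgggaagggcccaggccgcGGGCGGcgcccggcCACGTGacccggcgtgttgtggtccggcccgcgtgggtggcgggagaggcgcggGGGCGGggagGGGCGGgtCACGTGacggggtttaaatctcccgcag
Top2b: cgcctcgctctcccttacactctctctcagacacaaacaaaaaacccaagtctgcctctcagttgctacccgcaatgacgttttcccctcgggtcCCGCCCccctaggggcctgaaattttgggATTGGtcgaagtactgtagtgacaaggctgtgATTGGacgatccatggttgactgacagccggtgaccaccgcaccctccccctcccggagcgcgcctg
The Sirt1 stretch held 6 GC boxes, of which the first 2 overlap each other, and its other capitals are E-boxes. That of Top2b held 1 GC box and 2 CCAAT boxes, all on the opposite strand. Over the full 250 bases before the start, a GC box was present in 7 of the 8 genes and in 32.7% of 32851 RefSeq windows of that length, and an E-box in 4 of 8 and in 6.02%. A CCAAT box stood in 3 of 8 windows against 33.8% of all windows, and the TATA box in 0 of 8 against 12.4%. Sirt1 had 39 CpG dinucleotides in its window and a GC content of 79.2%, while Xrcc5 had 5 and 44.8%, against medians of 6 and 52.4% over all windows. These matches describe letters only.

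Libraries held 3571570 to 17220157 exon reads, the deepest being Chd4 cKO B, and every library had 49 or more reads in each of the 9 genes. Levels are given as counts-per-million values (CPM) of exon reads, with library totals scaled by TMM within a comparison. Against the labelled cell type, 12 mTEC markers summed to between 13890 and 23010 CPM in each library and 15 thymocyte markers to between 206.1 and 1106 CPM. Fezf2 fell from between 569.9 and 734.8 CPM in WT to between 8.435 and 23.4 CPM in Fezf2 KO, and Chd4 fell from between 55.42 and 66.54 to between 24.58 and 30.19 CPM in Chd4 cKO. Aire transcript was higher in the libraries labelled Aire KO, at 3737 to 4088 CPM against 1810 to 2302 CPM, so that the transcript does not check that label and directions below are those of the libraries labelled Aire KO. Library B of the WT group for Fezf2 stood apart. Its counts differed from those of WT for Fezf2 A and C by a chi-square per gene of 39.3 and 35.4, where all other pairs within a group gave 4.07 to 10.2, so the Fezf2 results are also given without it where its removal ends or makes a call, turns a direction or moves a value by over 1.5 times. The Y-linked genes Ddx3y, Eif2s3y, Kdm5d and Uty summed to 157 to 206 CPM in 2 of 3 libraries of WT for Aire, 2 of 3 of Aire KO and 1 of 3 of Chd4 control, and to at most 12.6 CPM in all others. These are bulk samples, in which fewer cells of a type and less RNA per cell cannot be told apart. Nothing in the labels says whether the triplicates are separate mice, and p values therefore speak of the spread among the libraries sequenced.

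Of the 9 genes, Sirt1 stood highest per length in mTECs and Prkdc lowest. In the WT group for Aire the mean level was 55.5 ± 11.7 RPKM (CPM per kilobase of exon; SD, n = 3) for Sirt1, which put it at percentile 92.7 of the 14949 genes tested there. Cdk9 followed at 16.5 ± 0.996 RPKM, and Prkdc stood at 1.53 ± 0.269 RPKM, percentile 15.8. Between them came Top2b (12.9 RPKM), Parp1 (12.2 RPKM), Xrcc5 (7.92 RPKM), Xrcc6 (6.74 RPKM), Top1 (5.58 RPKM) and Ccnt1 (3.76 RPKM). In that group the libraries of Top2b and Parp1, of Xrcc5 and Xrcc6, and of Xrcc6 and Top1 overlapped, and the other neighbours in the order did not. In the Chd4 controls Sirt1 and Cdk9 overlapped, with means of 52.3 and 48.8 RPKM, and in Chd4 cKO Cdk9 (45.3 RPKM) stood above Sirt1 (25.8 RPKM). Exon lengths differ between the tables, 4611 bases for Cdk9 in the Aire and Fezf2 tables and 1888 bases in that of Chd4, so levels per length are not compared across them. Per length, the kinase Cdk9 stood above its cyclin Ccnt1 in all 6 groups, and the catalytic subunit Prkdc below both Ku subunits in all 6 groups. Without division by length, Cdk9 stayed above Ccnt1 and Prkdc below Xrcc6 in every group. Prkdc and Xrcc5 were then level in WT for Aire (both 20.2 CPM). In Fezf2 KO Prkdc was above Xrcc5 (19.5 and 18.2 CPM), and in the remaining groups below it.

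**Figure D1:**
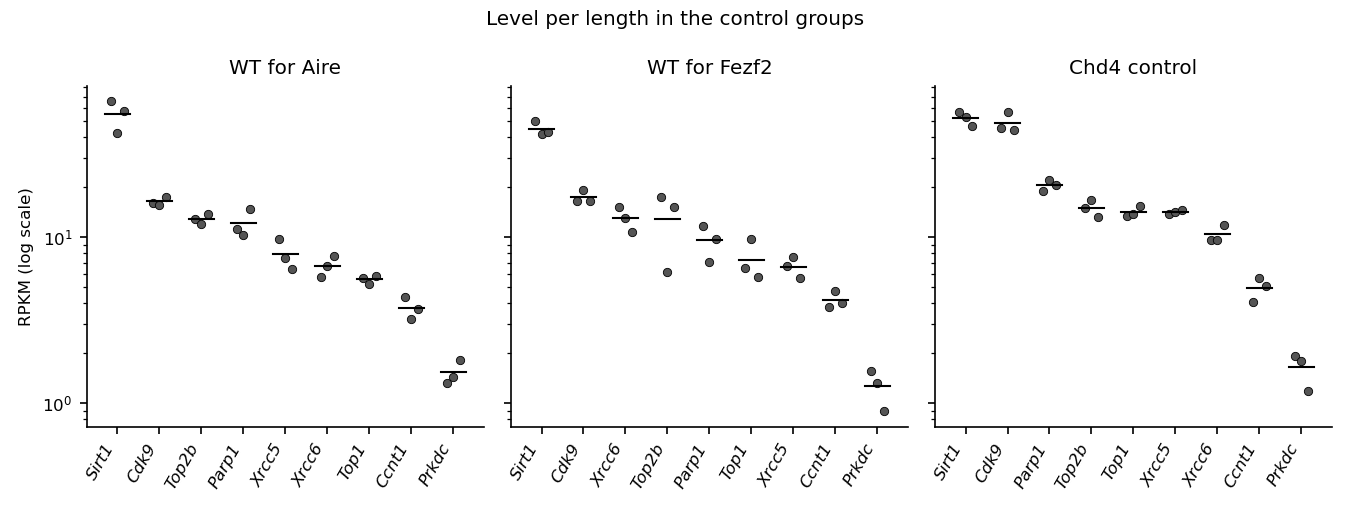
Levels per length (RPKM, log axis) of the 9 genes in the 3 libraries of each control group, in the order of their means (lines). Sirt1 leads with means of 55.5, 45 and 52.3 RPKM, and Prkdc is last with 1.53, 1.26 and 1.64 RPKM.

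Sirt1 lies on chromosome 10 at 63319005 to 63381704 on the minus strand (GRCm38). With the main settings it was the only gene of the set called in a knockout, and its directions were opposite. The other genes were not called, which does not show that they were unchanged. Sirt1 rose 1.54-fold in Aire KO mTECs and fell to 0.495 of the control level in Chd4 cKO mTECs. Sirt1 is a NAD-dependent deacetylase that removes acetyl groups from histones and from regulators such as Aire and p53. The antisense gene Gm16145 lies within the Sirt1 span, and reads of the pair cannot be told apart where the counting ignored strand, which the sources used here do not say.

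In the WT libraries A, B and C for Aire, Sirt1 stood at 350.8, 227.7 and 308.9 CPM. In Aire KO it stood at 421.2, 466.4 and 482.4 CPM. The lowest Aire KO library lay above the highest WT library, and the WT libraries were the more spread out, with an SD of 62.6 CPM against 31.7 CPM. The log2 fold change was 0.63 (SE 0.14, 95% interval 0.32 to 0.94, adjusted p = 0.00937, higher in 3 of 3 libraries). Among the 14949 genes tested in this comparison 15.1% were called, 5.73% higher and 9.37% lower, so 1 called gene of 9 is near that background. WT B and Aire KO A, the lowest library of each group, were also the 2 with low Y-linked levels. These levels were not alike, at 12.6 CPM in WT B and 0.457 CPM in Aire KO A. Between those 2 libraries Sirt1 went from 227.7 to 421.2 CPM, and among the libraries with high Y-linked levels it went from 308.9 and 350.8 to 466.4 and 482.4 CPM. With sex as a term in the fit, which counted both WT B and Aire KO A as not male, the log2 fold change was 0.64 (adjusted p = 0.00194).

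In the Chd4 controls A, B and C, Sirt1 stood at 252.1, 235.5 and 207.7 CPM. In Chd4 cKO it stood at 106.4, 126.1 and 110.7 CPM. The groups were far apart, the highest cKO library lying well below the lowest control. The log2 fold change was -1.01 (SE 0.11, 95% interval -1.25 to -0.78, adjusted p = 9.76e-05, lower in 3 of 3 libraries). In this comparison 28.6% of 15182 genes tested were called, 14.3% higher and 14.3% lower, and again 1 of the 9. Only control A had high Y-linked levels, and without it the log2 fold change was -0.94 (adjusted p = 0.000619).

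In the WT libraries A, B and C for Fezf2, Sirt1 stood at 268.7, 222.7 and 228.2 CPM, and in Fezf2 KO at 220.0, 187.0 and 147.5 CPM. All 3 KO libraries lay below the WT libraries, KO A only just below WT B, and KO C was the lowest. The log2 fold change of -0.38 (SE 0.21, 95% interval -0.84 to 0.09) did not pass the test (adjusted p = 0.361), and it was -0.42 without WT for Fezf2 B (adjusted p = 0.101). Here 4.87% of 15695 genes tested were called, 2.48% higher and 2.4% lower. No gene of the 9 was called by edgeR, 0 had an unadjusted p under 0.05, and DESeq2 also called 0.

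The differences between these effects on Sirt1 were tested in 1 fit of all 18 libraries. The effect in Chd4 cKO was lower than that in Aire KO by 1.63 on the log2 scale (difference -1.63, SE 0.23, adjusted p = 6.39e-05), and that in Fezf2 KO was lower than that in Aire KO (difference -1.03, SE 0.23, adjusted p = 0.00386). Between Chd4 cKO and Fezf2 KO the difference of -0.60 (SE 0.23, 95% interval -1.09 to -0.12) did not pass (adjusted p = 0.0902). Over 16169 genes tested, 16.5%, 16.9% and 14.9% were called in these 3 contrasts, and the median difference over all genes was 0.115, 0.033 and 0.048. The Aire and Fezf2 libraries came from one sequencing run and the Chd4 libraries from another, per the column names, and each effect was taken against controls of its own run. In the fit of the WT libraries alone, WT for Fezf2 against WT for Aire gave Sirt1 a log2 fold change of -0.35 (SE 0.21, adjusted p = 0.553).

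**Figure D2:**
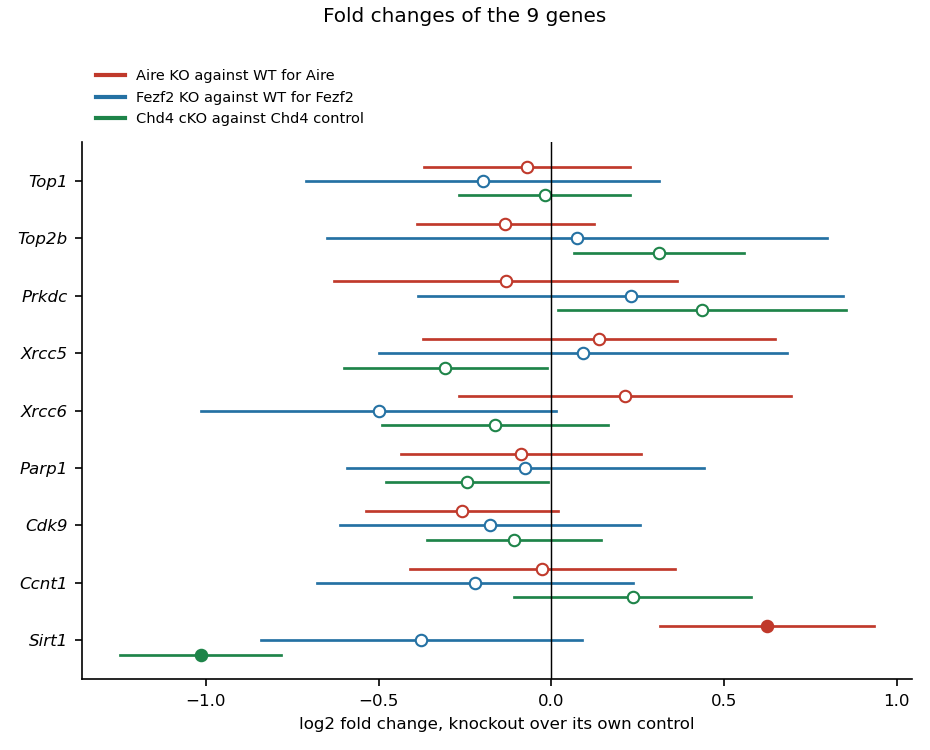
Log2 fold change of each gene with its 95% interval (lines) in Aire KO (red), Fezf2 KO (blue) and Chd4 cKO (green), each against its own controls, n = 3 libraries a group. Filled points passed an adjusted p of 0.05, and only Sirt1 has such points, at 0.63 in Aire KO and -1.01 in Chd4 cKO.

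Aire transcript took the same order of groups as Sirt1 in each comparison. In Aire KO it rose by 0.97 on the log2 scale (SE 0.12, adjusted p = 9.77e-05). It fell by 0.39 in Chd4 cKO (SE 0.07, adjusted p = 0.00294), from between 1018 and 1047 CPM to between 766.1 and 826.8 CPM. In Fezf2 KO the log2 fold change of Aire was -0.36 (SE 0.19, adjusted p = 0.337), with 805.3 to 1042 CPM against 1088 to 1297 CPM. Whether the mTEC subset that transcribes Aire contributed to the Sirt1 values was not tested. Summed mTEC markers, Aire among them, were 22220 to 23010 CPM in Aire KO against 16500 to 18140 CPM in WT, and 14550 to 15400 CPM in Chd4 cKO against 14950 to 15040 CPM in its controls. Of the 12 mTEC markers 5 rose and 2 fell in Aire KO, and 4 rose and 3 fell in Chd4 cKO. Over all genes tested 5.73% rose and 9.37% fell in Aire KO, and 14.3% rose and 14.3% fell in Chd4 cKO. Markers of mesenchyme and endothelium summed to 347.3 to 426.1 CPM in Aire KO and 181.9 to 225.1 CPM in its WT, with Dcn and Pecam1 called higher there and Col1a1, Col1a2 and Pdgfrb called lower among 6 tested. Dendritic cell and macrophage markers summed to 573.4 to 740.0 CPM in Chd4 cKO and 1040 to 1247 CPM in its controls, with 1 called higher and 3 lower of 6 tested. B cell markers summed to 27.22 to 36.91 CPM in Aire KO against 41.38 to 44.69 CPM in WT, and to 78.49 to 99.58 CPM in Chd4 cKO against 51.44 to 56.83 CPM, with 0 and 1 of 5 called. Only Itgax was at 0 reads in every library of a group, in Aire KO, and the part of these cells in the Sirt1 values was not tested.

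**Figure D3:**
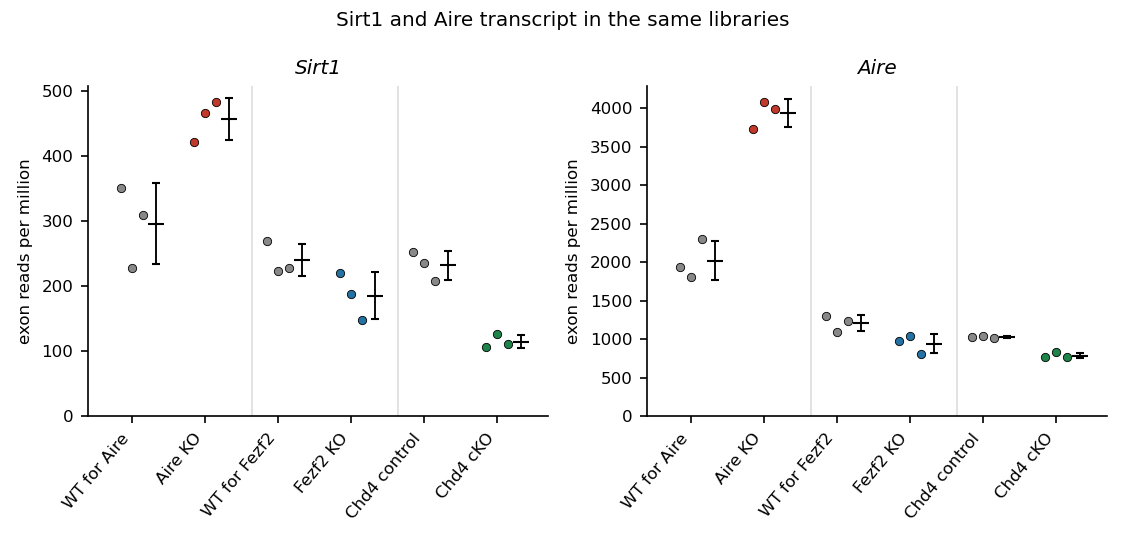
Sirt1 and Aire in CPM in the 3 libraries (points) of each group, with the mean and SD beside them. Against their own controls both genes are higher in Aire KO (Sirt1 421.2 to 482.4, Aire 3737 to 4088) and lower in Chd4 cKO (Sirt1 106.4 to 126.1, Aire 766.1 to 826.8). Levels were scaled within each comparison and are not ranked across comparisons.

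Over the 12 libraries of the Aire and Fezf2 tables, the genes whose log2 CPM followed Sirt1 most closely among 16532 genes were Bnip3 (Pearson r 0.979), Pip5k1b (0.972) and Srl (0.966). Bnip3 is a mitochondrial protein of mitophagy, Pip5k1b a lipid kinase that makes phosphatidylinositol bisphosphate, and Srl encodes sarcalumenin, a calcium-binding protein of muscle. The values are a description across libraries that share 1 run and 4 groups, which gives high correlations to any gene that differs between the groups. In Aire KO these genes rose by log2 fold changes of 0.81, 0.71 and 1.18. In Fezf2 KO they had -0.35, -0.42 and -0.41, and none was called. In Chd4 cKO, whose libraries did not enter the choice, Pip5k1b fell by 0.43 (adjusted p = 0.00443) and Srl fell by 0.33 (adjusted p = 0.0324). Bnip3 had -0.24 there (adjusted p = 0.0678), and each of these changes was smaller than the -1.01 of Sirt1. Of all genes tested in Chd4 cKO, 14.3% were called lower.

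Neither topoisomerase of the set was called in any knockout. Top1, on chromosome 2 at 160645888 to 160722764, encodes the enzyme that nicks 1 strand and is part of the machinery at Aire-bound enhancers. It varied little, from 49.3 to 60.67 CPM over the 6 libraries of the Aire comparison (log2 fold change -0.07, 95% interval -0.37 to 0.23, adjusted p = 0.806). In the Chd4 comparison it ranged from 50.46 to 59.82 CPM (-0.02, interval -0.27 to 0.23, adjusted p = 0.917). In the WT libraries A, B and C for Fezf2 it stood at 68.13, 101.4 and 59.71 CPM, and in Fezf2 KO at 62.55, 69.33 and 67.66 CPM, so that the single high value is that of WT for Fezf2 B. With that library the log2 fold change was -0.20 (adjusted p = 0.683) and without it 0.06 (adjusted p = 0.848).

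Top2b, on chromosome 14 at 16365179 to 16435462 in GENCODE, encodes topoisomerase II beta, which passes 1 double strand through another and acts at promoters of regulated genes. In Chd4 controls A, B and C it stood at 84.97, 94.50 and 74.89 CPM, and in Chd4 cKO at 108.3, 96.48 and 111.8 CPM. The groups did not overlap, although cKO B lay only just above control B. The log2 fold change of 0.31 (SE 0.11, 95% interval 0.07 to 0.56) narrowly missed the threshold (adjusted p = 0.0589), and passed it without Chd4 control B (0.41, adjusted p = 0.0379) and with no filter on low counts (0.36, adjusted p = 0.0314). In the Aire comparison Top2b ranged from 73.31 to 87.87 CPM over both groups (log2 fold change -0.13, interval -0.39 to 0.12, adjusted p = 0.533). In WT libraries A, B and C for Fezf2 it was 110.9, 39.29 and 97.02 CPM, with B far below the others, and in Fezf2 KO 86.67, 92.99 and 80.97 CPM. Without WT for Fezf2 B the log2 fold change turned from 0.07 (adjusted p = 0.929) to -0.26 (adjusted p = 0.222). That library also bore on the contrasts between effects: without it the effect on Top2b in Chd4 cKO was above that in Fezf2 KO by 0.60 (SE 0.16, adjusted p = 0.0128) and above that in Aire KO by 0.47 (SE 0.15, adjusted p = 0.0325), neither of which passed with it. Top2b overlaps the antisense gene Gm48163, and how the counts treated strand is not given. Rarb on the opposite strand overlaps only the longer GENCODE span of Top2b. It starts at 16430839, beyond the end at 16430787 that the count tables give Top2b.

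No DNA-PK gene was called in any knockout, and whether the subunits moved together was not tested. Prkdc (chromosome 16 at 15637866 to 15842235) encodes the catalytic subunit, which binds Aire, and Xrcc5 (chromosome 1 at 72307421 to 72394952) and Xrcc6 (chromosome 15 at 81987835 to 82040085) encode Ku80 and Ku70, which clasp DNA ends. In Chd4 cKO the catalytic subunit was above and both Ku subunits were below their controls, none past the threshold. Prkdc stood at 24.48, 22.76 and 15.07 CPM in the controls and at 27.03, 26.77 and 30.62 CPM in Chd4 cKO (log2 fold change 0.44, interval 0.02 to 0.85, adjusted p = 0.109). Xrcc5 stood at 35.45, 36.12 and 37.57 CPM in the controls and at 30.48, 26.36 and 32.12 CPM in Chd4 cKO (-0.31, interval -0.60 to -0.01, adjusted p = 0.111). For both genes the groups did not overlap. Without control C, the lowest for Prkdc, its log2 fold change was 0.26 (adjusted p = 0.279). Xrcc6 overlapped between the groups, at 35.73 to 43.79 and 29.12 to 38.53 CPM (-0.16, interval -0.49 to 0.16, adjusted p = 0.445).

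In Fezf2 KO the subunit that stood apart was Xrcc6. It was at 68.55, 58.41 and 48.39 CPM in WT and at 46.13, 45.88 and 31.88 CPM in KO. The groups did not overlap, but the log2 fold change of -0.50 (SE 0.23, interval -1.01 to 0.02) did not pass (adjusted p = 0.274), nor without WT for Fezf2 B (-0.50, adjusted p = 0.136). Prkdc (0.23, interval -0.39 to 0.85, adjusted p = 0.696) and Xrcc5 (0.09, adjusted p = 0.883, or 0.19 without WT for Fezf2 B) overlapped between the groups. The WT libraries for Fezf2 were themselves high for Xrcc6. Against the WT group for Aire, at 25.84, 30.07 and 34.54 CPM, they were higher by 0.91 on the log2 scale (SE 0.22, unadjusted p = 0.00219, adjusted p = 0.135), with no overlap. Between the WT groups 0.128% of 15656 genes tested were called and none of the 9 was, with 1 of the 9, Xrcc6, at an unadjusted p under 0.05, as had 11.9% of all genes. DESeq2 called Xrcc6 there (adjusted p = 0.0275), as did edgeR without WT for Fezf2 B (adjusted p = 0.0255). The WT groups also differed in Y-linked levels, high in 2 of 3 libraries for Aire and in 0 of 3 for Fezf2, and in thymocyte markers, at 206.1 to 317.1 CPM for Aire and 651.5 to 1106 CPM for Fezf2, falling to 411.1 to 455.3 CPM in Fezf2 KO. Of 15 thymocyte markers 8 fell in Fezf2 KO, where 2.4% of all genes tested fell. The part of these markers in the Xrcc6 values was not tested. In Aire KO no DNA-PK gene moved beyond the spread of its libraries, with log2 fold changes of -0.13 for Prkdc, 0.14 for Xrcc5 and 0.21 for Xrcc6 and adjusted p from 0.599 to 0.774.

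Across the 12 libraries of the Aire and Fezf2 tables the Ku subunits had a Pearson r of -0.523 in log2 CPM, Prkdc had 0.286 with Xrcc5 and -0.009 with Xrcc6, and Cdk9 had 0.459 with Ccnt1. These describe libraries of 4 groups that share a run, WT for Fezf2 B among them, with as few as 49 reads for Prkdc and 60 for Xrcc5 in a library. In WT for Fezf2 against WT for Aire Xrcc6 had 0.91 and Xrcc5 -0.30, neither called with the main settings. The part of these differences in the correlations was not tested. Xrcc6 overlaps Desi1 on the opposite strand and Prkdc holds the processed pseudogene Gm49511, so part of their reads may belong to those.

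Parp1 (chromosome 1 at 180568924 to 180601254) encodes the enzyme that marks DNA breaks with poly(ADP-ribose) chains. It was lower in Chd4 cKO, at 73.46, 73.17 and 63.16 CPM against 76.81, 88.56 and 83.51 CPM in the controls. The groups did not overlap, and the log2 fold change of -0.24 (SE 0.11, interval -0.48 to -0.01) did not pass (adjusted p = 0.113). In Aire KO (52.49 to 64.95 CPM) and its WT (54.97 to 78.58 CPM), and in Fezf2 KO (42.66 to 53.82 CPM) and its WT (37.72 to 62.26 CPM), the libraries overlapped. Its log2 fold changes there were -0.09 (adjusted p = 0.788) and -0.07 (adjusted p = 0.895), the latter -0.24 without WT for Fezf2 B (adjusted p = 0.379).

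Of the 2 subunits of P-TEFb neither was called. Cdk9 (chromosome 2 at 32705784 to 32713076, minus strand), the kinase, was lower in all 3 Aire KO libraries, at 69.76, 61.73 and 58.88 CPM against 74.69, 72.02 and 80.96 CPM in WT. The groups did not overlap but lay close together, and the log2 fold change of -0.26 (SE 0.13, interval -0.54 to 0.02) did not pass (adjusted p = 0.215). In Chd4 cKO Cdk9 was at 86.40, 86.11 and 84.15 CPM, within the 83.27 to 107.9 CPM of the controls (-0.11, adjusted p = 0.513). In Fezf2 KO it was at 64.82 to 82.80 CPM and in WT at 75.84 to 89.32 CPM (-0.18, adjusted p = 0.668, or -0.095, adjusted p = 0.746, without WT for Fezf2 B). The microRNA genes Mir2861 and Mir3960 lie within Cdk9 on its strand.

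Ccnt1 (chromosome 15 at 98538689 to 98570923, minus strand) encodes cyclin T1, which activates Cdk9 and tethers it to acceptor proteins. The antisense gene 9330020H09Rik overlaps it, with the same limit on its reads. It overlapped between the groups in all 3 comparisons. The log2 fold changes were -0.03 in Aire KO (interval -0.41 to 0.36), -0.22 in Fezf2 KO (-0.68 to 0.24) and 0.24 in Chd4 cKO (-0.11 to 0.58), with adjusted p of 0.948, 0.61 and 0.288. Without WT for Fezf2 B the value for Ccnt1 in Fezf2 KO was -0.12 (adjusted p = 0.732). 

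**Figure D4:**
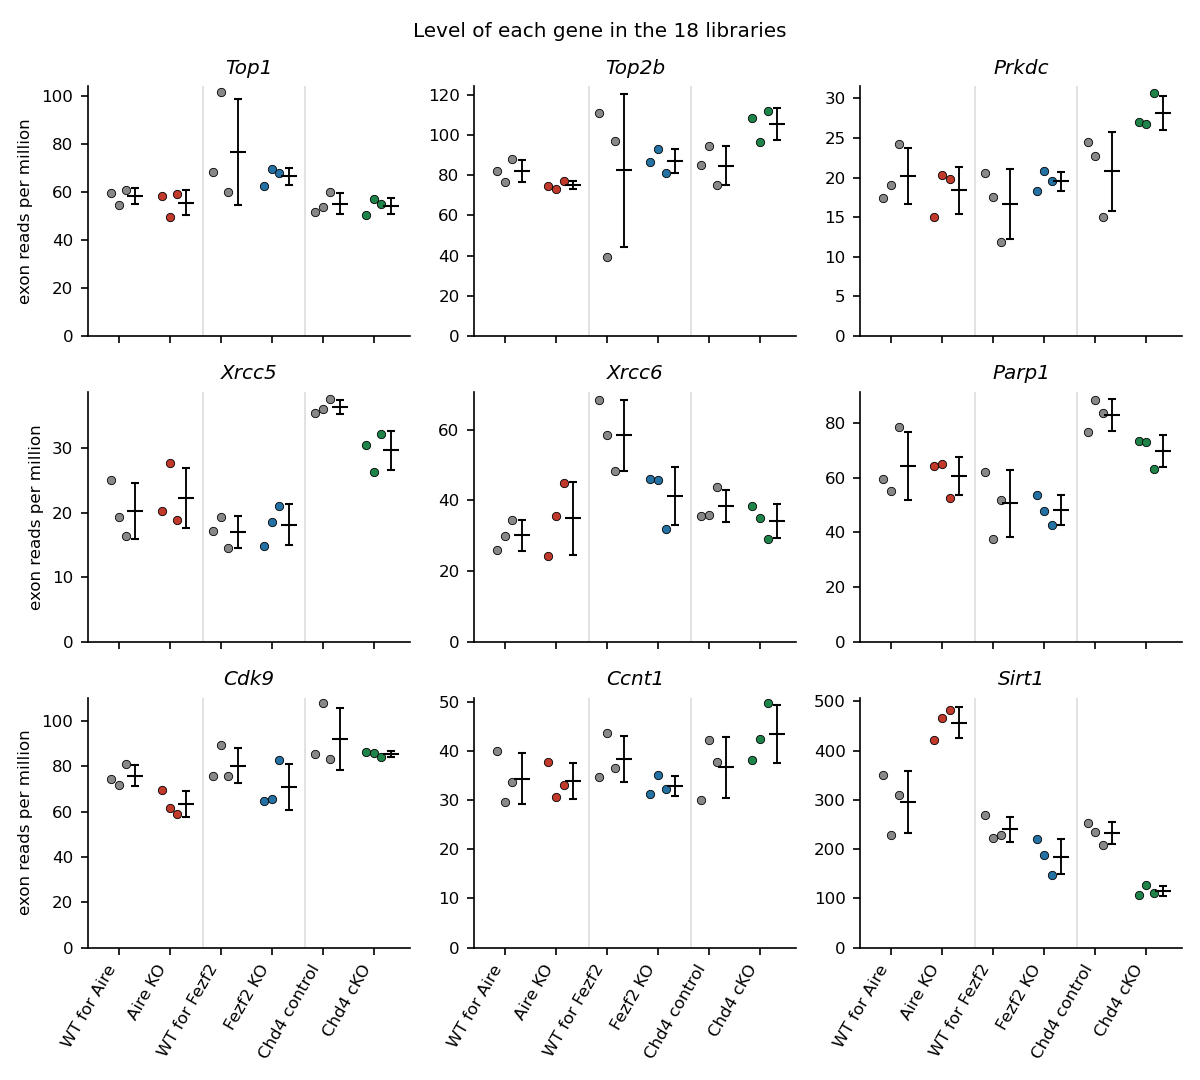
CPM of each gene in the 18 libraries (points A to C from left to right) with the mean and SD of each group beside them. Sirt1 separates Aire KO and Chd4 cKO from their controls, and WT for Fezf2 B is the outlying point for Top1 (101.4) and Top2b (39.29).

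The libraries of knockout and control did not overlap for 2 of the 9 genes in the Aire comparison (Sirt1 higher, Cdk9 lower), for 2 in that of Fezf2 (Sirt1 and Xrcc6 lower) and for 5 in that of Chd4 (Top2b and Prkdc higher, Parp1, Xrcc5 and Sirt1 lower). Over all genes tested the share was 32.1%, 27.5% and 44.3%, so nothing particular to the 9 genes is read from these counts. The median log2 fold change of the 9 genes was -0.07 in Aire KO, -0.18 in Fezf2 KO and -0.11 in Chd4 cKO, beside 0, -0.032 and 0.001 over all genes. Leaving Sirt1 aside, the 95% intervals of the other 8 genes ran from 0.647-fold to 1.62-fold in Aire KO, from 0.495-fold to 1.8-fold in Fezf2 KO and from 0.659-fold to 1.81-fold in Chd4 cKO. In Chd4 cKO 4 of those 8 had an unadjusted p under 0.05 (Top2b, Prkdc, Parp1 and Xrcc5), where 40.3% of all genes tested had one. In Aire KO and Fezf2 KO 0 of the 8 had, where 27.7% and 19.3% of all genes had. In the contrasts between effects Sirt1 was the gene called, and the interval of Xrcc6 between Fezf2 KO and Aire KO (-0.74, -1.37 to -0.10) gave an adjusted p of 0.106, or 0.0356 without Aire KO A (-0.93).

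The authors' deposited table gives group levels that, for genes such as Top1, do not follow the means of the count tables for Aire and Fezf2. For Top1 in the WT group for Aire it has a log2 level of 3.52, where the mean here was 5.58 RPKM without log. The exon length of Top1 is 10426 bases in the count tables for Aire and Fezf2 and 3856 bases in that for Chd4. For Xrcc5, with 2555 bases in each, the log2 level was 2.81 and the mean 7.92 RPKM. Which lengths the authors used was not tested. These levels do not show how the q values were made, which remains uncertain. In the authors' deposited table the q value of Sirt1 was 0.00047 for Aire KO, 0.405 for Fezf2 KO and 3.37e-14 for Chd4 cKO. That table gave the other 8 genes no q under 0.05 in any comparison, the lowest being 0.0687 for Top2b in Chd4.

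Genes that work with the 9 were read from 8 lists holding 89 genes, of which 88 were tested in each comparison. In Aire KO 6 rose and 0 fell (6.82% higher, median log2 fold change of all 88 genes 0.10), in Fezf2 KO 1 rose and 1 fell (1.14% each, median -0.02, or 1 and 5 with a median of -0.07 without WT for Fezf2 B), and in Chd4 cKO 11 rose and 4 fell (12.5% and 4.55%, median 0.11). The backgrounds given above are 5.73% and 9.37%, 2.48% and 2.4%, and 14.3% and 14.3%.

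Among 16 pausing and elongation factors 4 rose and 0 fell in Aire KO, with a median of 0.21. They were Supt4a (log2 fold change 0.43) and Supt5 (0.36), the subunits of the pausing and elongation factor DSIF, the histone chaperone subunit Ssrp1 (0.36), and Tcea1 (0.41), which rescues backtracked polymerase. Supt5 stood at 264 ± 12.5 CPM in Aire KO and 205 ± 6.32 CPM in WT (n = 3). These are small changes, and each of the 4 calls was lost in some alternatives, with adjusted p up to 0.126, 0.135, 0.13 and 0.0722 for the genes in the order named. Supt4a lost its call without WT for Aire A, Ssrp1 without any 1 of the WT libraries or Aire KO A or B, and Tcea1 without any 1 of the WT libraries or Aire KO B or C. For Supt5, leaving out any 1 of the 6 libraries ended the call, with adjusted p from 0.0523 without Aire KO A to 0.0895 without WT for Aire B. In Chd4 cKO 2 of the 16 rose and 1 fell (median -0.07): the NELF subunits Nelfcd (0.48) and Nelfe (-0.31) moved apart, and the PAF1 complex subunit Ctr9 rose by 0.34. The call of Nelfe was lost without any 1 of the 6 libraries (adjusted p 0.0627 to 0.148). That of Ctr9 was lost without Chd4 control B or Chd4 cKO A or B (adjusted p up to 0.0754). Alternatives that kept every library also ended the calls, 4 for Nelfe and 1 for Ctr9 (adjusted p up to 0.257 and 0.314).

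Supt16, the partner of Ssrp1 in the chaperone FACT, was the 1 elongation factor called in Fezf2 KO. It was at 16.14, 29.34 and 13.72 CPM in WT libraries A, B and C and at 77.41, 86.41 and 70.88 CPM in Fezf2 KO. Every KO library was far above every WT library, of which B was the highest. The log2 fold change was 1.99 (SE 0.29, adjusted p = 0.00502) and 2.38 without WT for Fezf2 B (adjusted p = 5.84e-06). In Aire KO Supt16 had a log2 fold change of 0.04 and in Chd4 cKO of 0.15, and its effect in Fezf2 KO differed from both (1.93 against Aire KO, adjusted p = 0.000521; -1.79 for Chd4 minus Fezf2, adjusted p = 0.00114), with 2.34 and -2.20 without WT for Fezf2 B. Ssrp1 was not called in Fezf2 KO. Cortical TEC markers summed to 2592 to 3198 CPM in Fezf2 KO against 1178 to 1662 CPM in WT. Of these 6 markers only Ctsl was called (log2 fold change 1.63), and the others ran from -0.96 for Ly75 to 0.93 for Ccl25. Their part in the Supt16 values, like that of the thymocyte markers, was not tested.

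Of 13 end joining and break response genes tested, Rad50 was the 1 called in Aire KO (median of the list 0.07). Rad50 is the clamp of the MRN complex, which holds broken DNA ends. It stood at 124.3, 99.84 and 136.9 CPM in WT and at 214.5, 271.1 and 307.2 CPM in Aire KO, with no overlap. The log2 fold change was 1.13 (SE 0.15, adjusted p = 0.000222). In Fezf2 KO Rad50 was at 64.65, 74.48 and 62.39 CPM against 102.1, 121.3 and 98.95 CPM in WT, also without overlap but not past the test (-0.68, SE 0.19, adjusted p = 0.074). Without WT for Fezf2 B it passed (-0.58, SE 0.13, adjusted p = 0.0113). In Chd4 cKO it had -0.18 (adjusted p = 0.183). The effect on Rad50 differed between Aire KO and both other knockouts (-1.84, adjusted p = 5.87e-06, for Fezf2 minus Aire and -1.30, adjusted p = 0.000263, for Chd4 minus Aire).

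Of 22 other proteins reported to bind or act with Aire, the acetyltransferase gene Crebbp rose in Aire KO, from 77.11, 66.64 and 68.87 CPM to 119.5, 116.4 and 110.0 CPM. That is a log2 fold change of 0.70 (SE 0.12, adjusted p = 0.00112), with no overlap. With all libraries, 0 of the 22 was called between the WT groups. Without WT for Fezf2 B, Crebbp was called lower in WT for Fezf2 than in WT for Aire (-0.58, adjusted p = 0.0443). Its effect in Fezf2 KO was then below that in Aire KO (-0.64, adjusted p = 0.0227). In Chd4 cKO 5 of the 22 rose and 0 fell (median 0.17), where 14.3% of all genes tested rose and 14.3% fell. Those that rose included the splicing helicase Snrnp200 (0.41), the RNA-binding protein Hnrnpl (0.41), the cohesin subunit Smc1a (0.39) and the remodeller Baz1b (0.36). Snrnp200 lost its call in 1 fit of all 18 libraries (adjusted p = 0.123). Hnrnpl lost its call with sex as a term (adjusted p = 0.0602) and without Chd4 control A (adjusted p = 0.0538). Smc1a and Baz1b lost theirs without Chd4 control A or B or Chd4 cKO B or C. Alternatives that kept every library also ended these calls, 2 for Smc1a and 3 for Baz1b. The adjusted p of Smc1a and Baz1b ran up to 0.0917 and 0.0934. In Fezf2 KO 0 of the 22 was called by edgeR, and 2, Ddx17 and Prpf19, were called lower without WT for Fezf2 B.

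Of 9 members of the super elongation complex, which carries P-TEFb, Aff1 rose in Chd4 cKO, from 48.11, 46.75 and 66.04 CPM to 111.1, 87.52 and 88.86 CPM. The groups did not overlap, and the log2 fold change was 0.83 (SE 0.15, adjusted p = 0.00256). No gene of this list was called in Aire KO or Fezf2 KO by edgeR, where 3 and 1 of the 9 had an unadjusted p under 0.05, beside the 27.7% and 19.3% of all genes given above. Its medians were 0.03 in Aire KO, 0.10 in Fezf2 KO and 0.04 in Chd4 cKO. The 10 regulators of P-TEFb and related kinases had no call in Aire KO (median 0.00) or Fezf2 KO (median -0.35, or -0.09 without WT for Fezf2 B), with 1 gene at an unadjusted p under 0.05 in each.

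Among the other topoisomerases and their repair enzymes Top2a, the topoisomerase II of dividing cells, fell in Fezf2 KO, from 97.90, 90.63 and 71.74 CPM to 40.54, 56.17 and 33.26 CPM (log2 fold change -1.0, SE 0.24, adjusted p = 0.0445). That call was lost when WT for Fezf2 A (adjusted p = 0.115) or C (adjusted p = 0.056) or Fezf2 KO A (adjusted p = 0.2), B (adjusted p = 0.0768) or C (adjusted p = 0.19) was left out. The 8 cycling-cell markers, of which Top2a is 1, summed to 174.6 to 246.1 CPM in Fezf2 KO against 283.4 to 370.8 CPM in WT, and their part was not tested. Without WT for Fezf2 B both Top2a and Tdp1 were called lower in Fezf2 KO. In Chd4 cKO Top3b had 0.29 and was called, and Tdp1, which frees topoisomerase I trapped on DNA, fell by 0.38. The call of Top3b was lost without any 1 of the 6 libraries (adjusted p 0.0572 to 0.13). That of Tdp1 was lost without Chd4 control B or any 1 of the cKO libraries (adjusted p up to 0.153). Alternatives that kept every library also ended the calls, 4 for Top3b and 2 for Tdp1 (adjusted p up to 0.15 and 0.284).

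Of the 6 other sirtuins, Sirt2 (-0.40, adjusted p = 0.0137) and Sirt4 (-0.70, adjusted p = 0.0156) fell in Chd4 cKO, and the remaining 4 were not called. In that comparison 14.3% of all genes tested fell. Sirt4 went from 22.7 ± 3.51 to 13.8 ± 1.04 CPM (n = 3). The call of Sirt2 was lost without Chd4 control B or Chd4 cKO B (adjusted p 0.0541 and 0.0594). That of Sirt4 was lost without Chd4 control A (adjusted p = 0.0631), the control with high Y-linked levels. For each gene 1 alternative that kept every library also ended the call, with adjusted p up to 0.16 for Sirt2. None of the 6 was called in Aire KO or Fezf2 KO by edgeR. Of 5 other PARPs and single-strand break repair genes Parp3 rose in Chd4 cKO (52.9 ± 5.17 to 77.3 ± 8.25 CPM, log2 fold change 0.54, adjusted p = 0.00786).

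**Figure D5:**
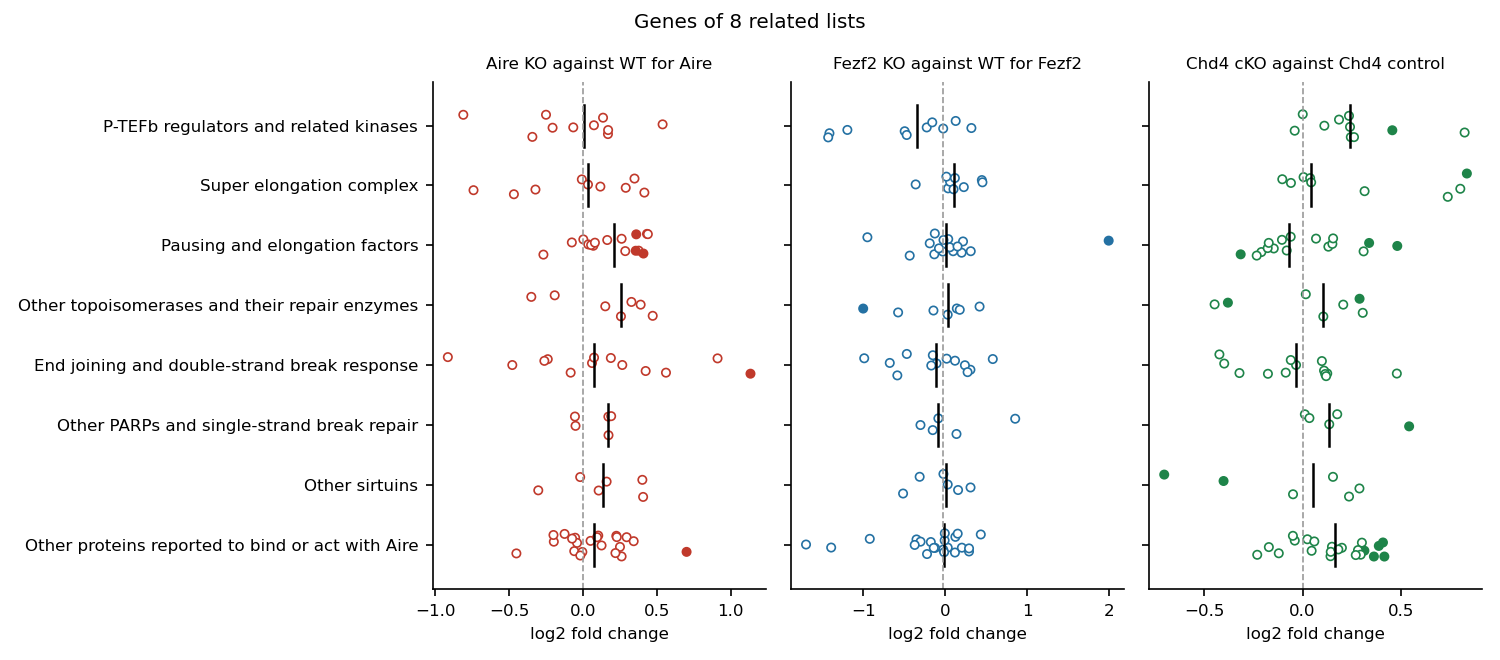
Log2 fold change of each tested gene of the 8 lists (points, filled where the adjusted p was under 0.05), with the median of the list (black bar) and of all genes (dashed line), in Aire KO, Fezf2 KO and Chd4 cKO. Filled points are few, with Rad50 (1.13) and Crebbp (0.70) in Aire KO, Supt16 (1.99) in Fezf2 KO and Aff1 (0.83) in Chd4 cKO the farthest to the right.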

How the data were processed

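RNA-seq of 18 libraries was analysed from 3 tables of counts in which the authors give the total exon reads of each gene and library, per the file headers, with an exon length per gene. Per the same headers, these were single-end reads, trimmed, from a run with IonXpress barcodes. The submitters' processing notes name DESeq2 and the builds mm10 and GRCm38. The aligner and the handling of strand and of reads with several matches were not given in the sources used here. A deposited summary table of the authors holds a log2 level per group and p and q values. Its q values are printed, and its levels only for Top1 and Xrcc5 in the WT group for Aire. Columns carry a group name and a barcode, so a library could be tied to its group alone, and the letters A, B and C were given by barcode. A total of 216 other per-library columns were not used. Starts were raised by 1.

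Comparisons used the 6 libraries concerned and edgeR 4.0.16 (R 4.3.3; filterByExpr, TMM, quasi-likelihood F tests, two-sided, Benjamini-Hochberg over all genes tested, called under 0.05), and differences between effects all 18. The SE is the log2 fold change over the square root of F, and 95% intervals use it with the t quantile of the test. Means ± SD are over the libraries of a group (n = 3). CPM used the TMM-scaled totals of a comparison, and RPKM the exon lengths. The fits were tested on simulated data. The simulated spread between libraries was below that found here except in the Chd4 comparison, and no simulated library was made to stand apart. Alternatives were DESeq2 1.42.0, RLE and upper-quartile factors, no filter, 1 fit of all libraries, each library left out, and sex as a term (added after the values were seen; male above 50 CPM over 4 Y-linked genes). The genes, lists and tests were chosen with earlier results of these data known. Named genes are the 9, the 3 targeted genes, up to 4 called genes per list and comparison by size of change, and the 3 genes most correlated with a called gene over the 12 libraries of the Aire and Fezf2 tables at a prior count of 2. Markers, and genes called only without WT for Fezf2 B, were named after their values were seen. Promoter windows came from RefSeq (GRCm38.p6), positions from the tables and GENCODE. One result of the list of P-TEFb regulators is not reported here.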

Additional observations from a re-analysis of the deposited data

Results flagged for a closer look

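The effect on Sirt1 differed between knockouts by an interaction contrast in the edgeR fit of all 18 libraries. Fezf2 KO against Aire KO gave a difference of -1.03 (adjusted p = 0.00386), and Chd4 cKO against Aire KO gave -1.63 (adjusted p = 6.39e-05). Sirt1 was above its controls in 3 of 3 Aire KO libraries and below them in 3 of 3 libraries of Fezf2 KO and of Chd4 cKO. Both differences passed the threshold in all 22 alternatives run, from -1.16 to -0.86 and from -1.76 to -1.47. Aire transcript differed in the same directions, at log2 fold changes of 0.97, -0.36 and -0.39 in Aire KO, Fezf2 KO and Chd4 cKO, and its part was not tested.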

How the results depend on the processing

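Sirt1 passed the threshold in all 12 alternatives in Aire KO (log2 fold change 0.48 to 0.77, adjusted p up to 0.0386) and in Chd4 cKO (-1.09 to -0.94, adjusted p up to 0.000832), and in 0 of 11 in Fezf2 KO (-0.52 to -0.23, adjusted p 0.101 to 0.686). Of the 9 genes, 2 were called in Chd4 cKO with no filter on low counts, and 1 to 2 with a library left out (Top2b without Chd4 control B). Between the WT groups 1 was called (Xrcc6) by DESeq2, in 1 fit of all libraries and without WT for Fezf2 B, and 0 to 1 with a library left out. Between effects, 1 to 2 were called with a library left out for Fezf2 minus Aire (Xrcc6 without Aire KO A) and for Chd4 minus Aire (Top2b without WT for Fezf2 B), and 0 to 1 for Chd4 minus Fezf2 (Top2b without WT for Fezf2 B, Sirt1 without Fezf2 KO C), where DESeq2 also called 1 (Sirt1). Genes called over the whole table numbered 2257 in Aire KO, or 3466 with no filter. In Fezf2 KO they numbered 765, or 1398 with DESeq2, 1387 with no filter, 2169 in 1 fit of all libraries and 169 (without Fezf2 KO B) to 2034 (without WT for Fezf2 B) with a library left out. In Chd4 cKO they were 4339, or 2375 in 1 fit of all libraries. Between the WT groups they were 20, or 433 with DESeq2, 8 with upper-quartile factors, 455 with no filter, 632 in 1 fit of all libraries and 0 to 636 with a library left out. The sign of uncalled log2 fold changes turned when a library was left out. In Aire KO these ranged from -0.11 to 0.021 for Top1, -0.23 to 0.023 for Prkdc, -0.18 to 0.088 for Parp1, -0.039 to 0.33 for Xrcc5 and -0.12 to 0.10 for Ccnt1. In Fezf2 KO they ranged from -0.34 to 0.057 for Top1, -0.26 to 0.35 for Top2b, -0.24 to 0.11 for Parp1 and -0.021 to 0.22 for Xrcc5. In Chd4 cKO they ranged from -0.056 to 0.062 for Top1, which was 0.030 with no filter and 0.019 in 1 fit of all libraries, and from -0.16 to 0.033 for Cdk9. The cause was not tested. No paired analysis was possible because no column of the count tables carries a replicate number. Counting error limits Prkdc and Xrcc5 most, with 49 and 60 reads in their lowest libraries.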
